A study of Mus musculus with 25 samples.

Results

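The acute-phase proteins that fat tissue can make are described here by 10 genes, *Saa1*, *Saa2*, *Saa3*, *Hp*, *Lcn2*, *Orm1*, *Orm2*, *Serpina3n*, *Serpina3g* and *Itih4*, out of 54752 genes in the count files. They were chosen by symbol from a list of acute-phase genes. RNA was sequenced from 25 white fat libraries of male C57BL/6N mice, 1 library per mouse sample. Epididymal fat (eWAT) gave 4 libraries from wild type (WT) mice on normal chow (ND), 5 from WT mice on a high-fat diet (HFD) and 5 from HFD-fed *Acod1*-/- mice, here called KO. Inguinal fat (iWAT) gave 3, 5 and 3 libraries of the same kinds. Fat supplied 60% of the calories of the HFD, which mice ate for 16 weeks starting at 5 weeks of age, and the labels give 17 and 18 weeks for KO HFD libraries 2 and 3 of iWAT. *Acod1* encodes the enzyme that makes itaconate in macrophages, and the knockout is a deletion in the whole body, carried by a single mutant line and compared with littermates. The labels do not say whether the eWAT and iWAT libraries came from the same animals.

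Acute-phase proteins are secreted plasma proteins whose synthesis rises in inflammation, mostly in the liver, when IL-6, IL-1 and TNF act through STAT3, C/EBP and NF-κB transcription factors. Fat makes several of them as well. In mice, *Saa3* is the serum amyloid A gene made largely outside the liver, by adipocytes and macrophages, while *Saa1* and *Saa2* are mainly liver genes. Haptoglobin (*Hp*) binds free haemoglobin and is a known product of fat cells, lipocalin-2 (*Lcn2*) binds bacterial siderophores, the orosomucoids (*Orm1*, *Orm2*) carry lipids and drugs in plasma, the *Serpina3* genes encode serine protease inhibitors, and *Itih4* encodes a heavy chain of the inter-alpha-trypsin inhibitor family.

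The serum amyloid A genes lie within 1 cluster, with *Saa3* at chr7:46711998-46715700 (minus strand), *Saa1* at chr7:46740497-46742980 (minus strand) and *Saa2* at chr7:46751790-46754313 (plus strand) in GRCm38. RefSeq promoter entries (GRCm38.p6, gene strand) were found for 8 of the 10 genes. The windows from 250 to 51 bases before the gene start are printed for 4 genes, the serum amyloid A genes because *Saa1* and *Saa2* are near copies of each other and *Saa3* is not, and *Orm2* because its diet response differed between the depots. Capitals mark matches to 4 motifs searched on both strands, TTGCNNAA for C/EBP, GGG, NN and TTTCC in a row for NF-κB, TTCNNNGAA for STAT3 and TATAAA for the TATA box.
Saa1: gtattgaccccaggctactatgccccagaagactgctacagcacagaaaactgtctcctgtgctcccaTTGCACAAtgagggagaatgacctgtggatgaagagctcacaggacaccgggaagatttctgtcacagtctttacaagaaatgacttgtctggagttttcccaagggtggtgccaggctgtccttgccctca
Saa2: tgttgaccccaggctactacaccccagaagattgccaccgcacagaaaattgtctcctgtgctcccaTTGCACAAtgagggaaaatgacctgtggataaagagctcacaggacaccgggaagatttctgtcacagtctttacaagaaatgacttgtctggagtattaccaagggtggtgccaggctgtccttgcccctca
Saa3: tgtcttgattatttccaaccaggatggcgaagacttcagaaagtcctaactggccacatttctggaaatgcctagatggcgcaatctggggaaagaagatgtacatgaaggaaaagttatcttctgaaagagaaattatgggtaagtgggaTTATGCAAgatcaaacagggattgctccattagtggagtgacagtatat
Orm2: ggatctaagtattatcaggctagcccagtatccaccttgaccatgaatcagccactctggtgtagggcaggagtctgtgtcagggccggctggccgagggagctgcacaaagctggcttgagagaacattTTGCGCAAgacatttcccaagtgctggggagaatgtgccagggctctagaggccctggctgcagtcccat
These windows are chr7:46743031-46743230 (minus strand), chr7:46751583-46751782 (plus strand), chr7:46715727-46715926 (minus strand) and chr4:63362199-63362398 (plus strand). The promoters of *Saa1* and *Saa2* were 94.8% identical over 251 aligned columns, and both held TTGCACAA. A C/EBP match stood within 250 bases of the start in 5 of the 8 promoters (*Saa1*, *Saa2*, *Saa3*, *Lcn2*, *Orm2*), beside 9.56% of 32851 promoters in the table. *Serpina3n* and *Serpina3g* each held 1 NF-κB match (1.41% of all promoters), *Serpina3g* and *Itih4* each 1 STAT3 match (7.02%), and *Orm2* also held a TATA box (12.4%), outside the printed window. These matches are letters found in a window, and binding was not measured.

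Near copies matter for the counts, because the files hold uniquely aligned reads. Of the 50-base windows of the longest coding transcript, 14.8% in *Saa1* and 9.12% in *Saa2* also occurred in a transcript of another gene, most of them in each other. The shares were 20.4% in *Orm1* and 22.7% in *Orm2*, 16% in *Serpina3g*, 6.9% in *Serpina3n* and 3.91% in *Saa3*. None was shared in *Hp*, *Lcn2* and *Itih4*. Reads from shared windows could not be assigned to 1 gene, so values of *Saa1*, *Saa2*, *Orm1*, *Orm2*, *Serpina3n* and *Serpina3g* are uncertain to that extent.

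Each library had 31.41 M to 52.34 M reads counted on genes (M, mega), so that 3 counts, the smallest number taken as detected, stood for 0.0537 to 0.115 CPM, the unit of levels here, which divides counts by library size. Adipocyte markers summed to 19385 CPM or more in every library, and mesothelial markers separated the depots (39.6 to 160 CPM in eWAT, 0.34 to 7.24 CPM in iWAT). *Acod1* itself had 0 to 9 counts in every library, too few to check the genotype of any. Library numbers in the column headers fall in 2 runs, here series 1 with 14 libraries and series 2 with 11. Series 2 holds every ND library and 1 HFD library of each of the 4 HFD groups (library 5 of both eWAT groups and of iWAT WT, and library 3 of iWAT KO), so diet and series nearly coincide. Genotype was therefore also tested within series 1, where 4 WT and 4 KO libraries of eWAT and 4 WT and 2 KO libraries of iWAT stand, and diet within series 2, where the lone HFD library is assumed to vary like the ND group. Diet and genotype comparisons of a depot share their WT HFD libraries.

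Per kilobase of the deposited cDNA length, *Hp* was by far the most abundant of the 10 genes in each of the 6 groups. That length was well above the longest coding transcript for *Saa1* (2478 and 609 bases), *Saa2* (2518 and 652) and *Lcn2* (2623 and 915). Levels of these genes per kb would be higher by coding transcript, so their places in the order below depend on the length used. In eWAT of WT HFD mice the order of mean levels was *Hp* at 5563 ± 1396 CPM per kb of cDNA (SD, n = 5), *Orm1* at 380 ± 160, *Serpina3n* at 231 ± 49.8, *Saa3* at 44.9 ± 14, *Orm2* at 9.38 ± 3.82, *Lcn2* at 6.53 ± 3.86, *Serpina3g* at 1.70 ± 0.633, *Itih4* at 1.22 ± 1.25, *Saa1* at 0.695 ± 0.754 and *Saa2* at 0.508 ± 0.508. The neighbours *Orm1* and *Serpina3n*, *Orm2* and *Lcn2*, *Serpina3g* and *Itih4*, *Itih4* and *Saa1*, and *Saa1* and *Saa2* did not differ beyond their spread. In iWAT of WT HFD mice *Hp* reached 3173 ± 1075 CPM per kb, *Orm1* 330 ± 78.9, *Serpina3n* 220 ± 41.6 and *Saa3* 8.46 ± 7.07, and the other 6 lay between 0.773 and 3.0. *Hp* alone took 0.893% of all counts in eWAT of WT HFD mice, beside 0.259% in WT ND mice.

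In eWAT, 5 of the 8 acute-phase genes tested were higher in HFD-fed than in ND-fed WT mice and none was lower (edgeR quasi-likelihood test, adjusted p under 0.1 over all genes). Among all 14936 genes tested, 51.8% were called, 24.8% higher and 26.9% lower. The genes that rose were *Saa3*, *Orm2*, *Hp*, *Serpina3g* and *Orm1*, and *Lcn2*, *Serpina3n* and *Itih4* did not pass. The median log2 fold change of the 8 was 1.30, beside -0.04 over all genes. In iWAT, 8 of 9 genes tested were called, 7 higher and 1 lower, where 50.1% of 14801 genes were called, 25.9% higher and 24.2% lower. *Saa1*, *Saa2*, *Saa3*, *Hp*, *Orm1*, *Serpina3n* and *Itih4* rose, *Serpina3g* fell and *Lcn2* did not pass. The median of the 9 was 1.97, also with *Saa2* set to its bound given below, beside 0.00 over all genes. *Saa1* and *Saa2* in eWAT and *Orm2* in iWAT were under the filter of a mean of 1 CPM and are given separately. In iWAT, *Saa1*, *Saa2* and *Saa3* had ND means of 0.110, 0 and 0.524 CPM and passed that filter only through their HFD libraries. The count of 7 and the median in iWAT thus include genes that their higher HFD level brought into the test.

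In eWAT of HFD-fed mice, 4 of 8 genes were lower in KO than in WT mice, *Hp*, *Saa3*, *Serpina3g* and *Orm2*, and none was higher. Of all genes 19.9% were called, 9.13% higher and 10.8% lower, and the median log2 fold change was -0.74 for the 8 and 0.04 for all genes. In iWAT none of 9 genes was called (0% of all genes by edgeR), although 2468 genes had an unadjusted p under 0.05. DESeq2 called 2 of the 9 there, *Hp* (adjusted p = 0.000332) and *Saa3* (adjusted p = 0.00984), among 1072 genes in all (7.35% of those it tested). The median of the 9 was -0.61, beside -0.01 over all genes.

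**Figure D1:**
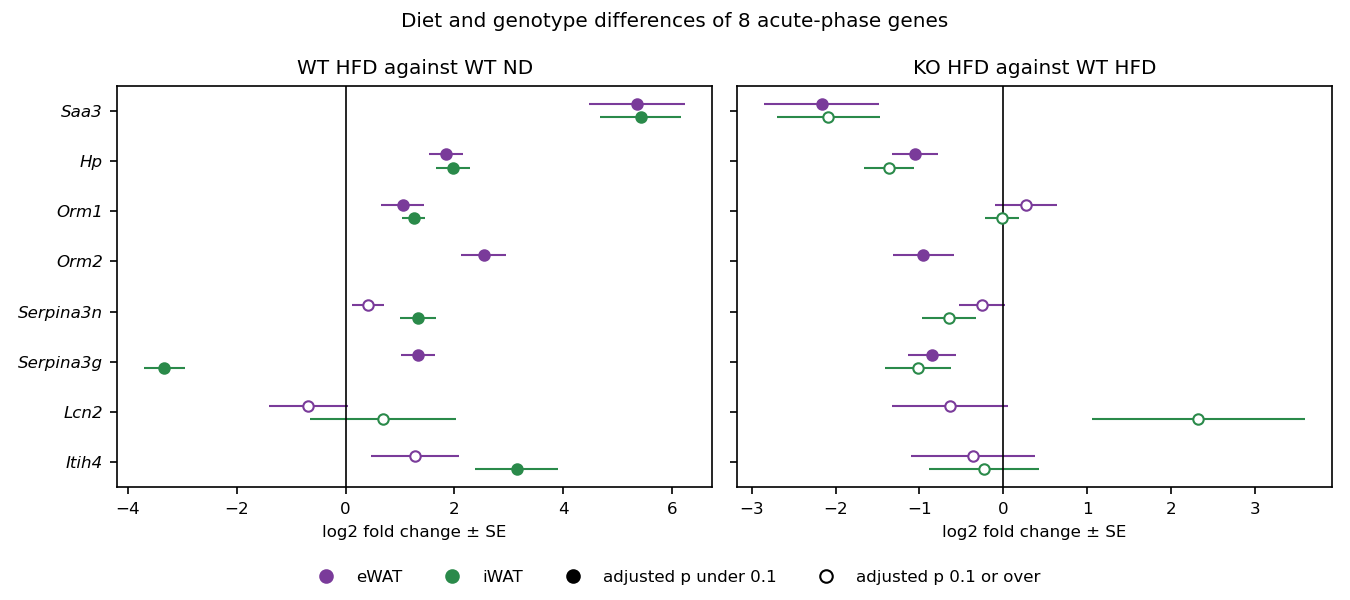
Log2 fold changes with SE of 8 acute-phase genes for diet (left) and genotype (right), in eWAT (purple) and iWAT (green), filled where the adjusted p was under 0.1. *Saa3* and *Hp* lay right of 0 for diet and left of 0 for genotype in both depots, and *Serpina3g* lay on opposite sides for diet in the 2 depots. *Saa1* and *Saa2* are left out because their counts were near or at 0 on ND.

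*Saa3* showed the largest fold change for diet among the 8 genes tested in eWAT. Its levels in WT ND libraries 1 to 4 of eWAT were 5.16, 1.96, 3.0 and 1.30 CPM, and in WT HFD libraries 1 to 5 they were 77.1, 104, 155, 156 and 92.4 CPM. All HFD libraries lay above all ND libraries, as 17.2% of all genes did in that direction. The means were 2.85 ± 1.68 (SD, n = 4) and 117 ± 36.5 CPM (n = 5), a 40.9-fold difference (log2 5.36, SE 0.88, adjusted p = 0.00076, edgeR). In iWAT, *Saa3* stood at 0.773, 0.525 and 0.272 CPM in the WT ND libraries and at 54.1, 13.4, 16.7, 18.7 and 7.28 CPM in the WT HFD libraries, again without overlap (23% of all genes). That is a 42.8-fold difference (log2 5.42, SE 0.75, adjusted p = 0.000379). The response did not differ detectably between depots (difference of log2 changes -0.04, SE 0.93, adjusted p = 0.989), while the level was higher in eWAT on both diets (log2 2.44, SE 0.92, adjusted p = 0.0573 on ND and log2 2.41, SE 0.65, adjusted p = 0.0174 on HFD). The depot call of *Saa3* on ND was lost in 3 of 25 fits that left out 1 library (adjusted p up to 0.179, edgeR). The call on HFD was lost in none. In bulk tissue, fewer cells of a type and less RNA per cell cannot be told apart.

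*Hp* rose with *Saa3* but from a high base. In eWAT its levels were 2431, 2557, 3008 and 1989 CPM on ND and 5794, 7480.5, 9915, 11304 and 10176 CPM in WT HFD libraries, a 3.58-fold difference (log2 1.84, SE 0.31, adjusted p = 0.000823). In iWAT they were 1189, 1424 and 1362 CPM on ND and 7341, 5575, 4429.9, 5499 and 2635 CPM on HFD, a 3.92-fold difference (log2 1.97, SE 0.31, adjusted p = 0.000728). Neither pair of groups overlapped. The diet response differed between depots by a log2 of -0.10 (SE 0.43, adjusted p = 0.893), and eWAT was the higher depot on both diets (log2 0.91, adjusted p = 0.0504 on ND and log2 0.81, adjusted p = 0.0534 on HFD, edgeR). The depot call of *Hp* was lost in 4 of 25 fits that left out 1 library on ND (adjusted p up to 0.133) and in 3 of 25 on HFD (up to 0.134), and on HFD also when low genes were kept (adjusted p = 0.113). Within series 2, the single WT HFD library of each depot lay above all ND libraries for *Saa3* and *Hp*, with a log2 change of 5.02 (adjusted p = 0.0547) and 2.03 (adjusted p = 0.0547) in eWAT and of 3.81 (adjusted p = 0.0342) and 1.02 (adjusted p = 0.0645) in iWAT.

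**Figure D2:**
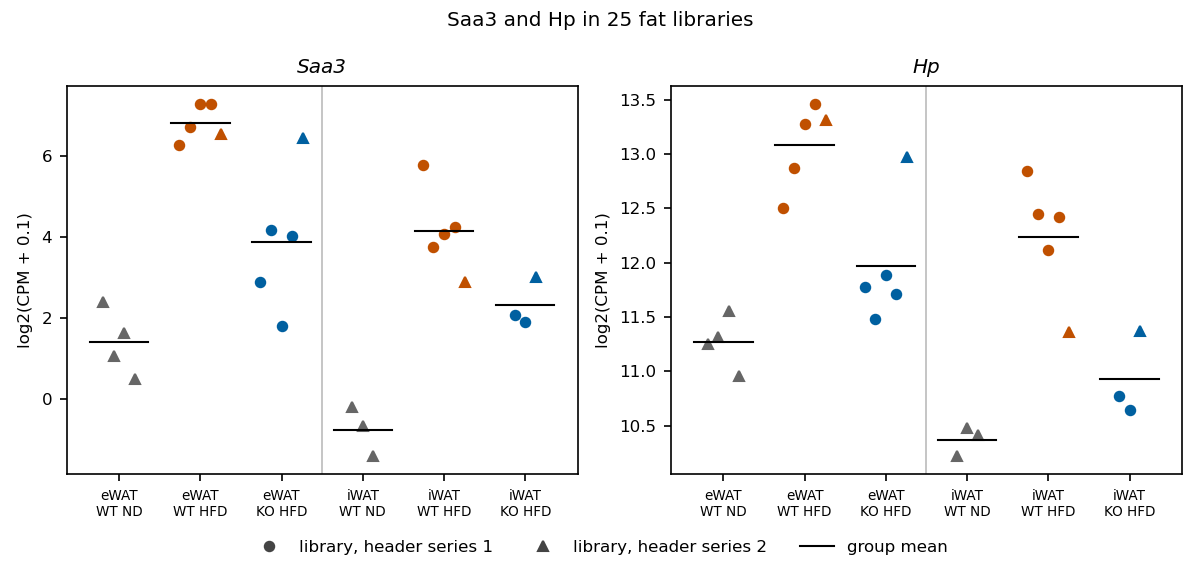
*Saa3* (left) and *Hp* (right) as log2(CPM + 0.1) in 25 libraries by group, with circles for series 1, triangles for series 2 and a line at the mean of each group. Both genes were higher in WT HFD than in WT ND libraries of each depot, and the triangle of each KO HFD group (for eWAT 85.9 CPM of *Saa3* and 8058 CPM of *Hp*) stood above the circles of that group.

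Loss of *Acod1* went with lower *Saa3* and *Hp* in eWAT. *Saa3* stood at 7.26, 17.9, 3.38, 16.0 and 85.9 CPM in KO HFD libraries 1 to 5, a mean of 26.1 ± 34.0 CPM (SD, n = 5) beside 117 in WT HFD (log2 -2.16, SE 0.68, adjusted p = 0.055, edgeR). *Hp* stood at 3513, 2861, 3789, 3347 and 8058 CPM, a mean of 4313 ± 2120.2 CPM beside 8934 ± 2241 (log2 -1.05, SE 0.28, adjusted p = 0.0292). KO libraries 1 to 4 lay below every WT HFD library for both genes, and KO library 5 lay within the WT HFD range. Library 5 is the KO library of series 2. Within series 1 the difference was log2 -3.50 for *Saa3* (adjusted p = 0.00225) and -1.36 for *Hp* (adjusted p = 0.00597), while in series 2 the single WT and KO libraries read 92.4 and 85.9 CPM of *Saa3* and 10176 and 8058 CPM of *Hp*. The genotype difference in series 1 less that in series 2 was log2 -3.40 for *Saa3* (SE 1.05, adjusted p = 0.326, edgeR) and -1.03 for *Hp* (SE 0.54, adjusted p = 0.498), and neither passed. *Hp* was called whichever library was left out (adjusted p at most 0.0737), and *Saa3* lost its call when WT HFD library 4 or KO HFD library 1, 2 or 4 was left out (adjusted p up to 0.12).

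In iWAT, *Saa3* stood at 4.11, 3.63 and 7.88 CPM and *Hp* at 1744, 1596 and 2646 CPM in the KO HFD libraries. The third of these is the KO library of series 2, and the WT HFD library of series 2 read 7.28 CPM of *Saa3* and 2635 CPM of *Hp*, near the same levels. Over both series the difference was log2 -2.09 for *Saa3* (SE 0.61, adjusted p = 0.156) and -1.37 for *Hp* (SE 0.30, adjusted p = 0.137), and neither passed. Within series 1, with 4 WT and 2 KO libraries, both passed, with log2 -2.73 (adjusted p = 0.0572) and -1.77 (adjusted p = 0.0191), where 14.9% of all genes did. Leaving out KO library 3 over both series gave log2 -2.50 (adjusted p = 0.0631) and -1.61 (adjusted p = 0.0242). The genotype difference did not differ detectably between the depots (log2 -0.09, SE 0.96, adjusted p = 0.99 for *Saa3* and 0.30, SE 0.42, adjusted p = 0.845 for *Hp*).

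Macrophage markers moved with *Saa3* between the groups of eWAT. All 8 rose with HFD and all 8 fell in KO mice, led by *C1qa*, *Cd68* and *Trem2* (log2 2.35, 3.89 and 4.87 for diet and -1.77, -2.70 and -3.55 for genotype). Their summed level was 491 to 934 CPM in WT ND, 1455 to 4816 in WT HFD and 416 to 1542 in KO HFD, where the highest value was again library 5. Within WT HFD, library 1 had the highest sum and the lowest *Saa3* (77.1 CPM), and library 4, with a sum of 4011 CPM, had the highest *Saa3* (156 CPM). In iWAT 6 of 8 rose with HFD, from 511 to 688 CPM to 516 to 1297 CPM. They summed to 339 to 457 CPM in KO HFD libraries of iWAT, below every WT HFD library there. None of the 8 was called for genotype in iWAT (median log2 -1.16). Among neutrophil markers *S100a8* rose in both depots (log2 4.05 and 3.36), *Cxcr2*, the only other one tested, fell with HFD in iWAT from 6.56 ± 2.21 to 0.0855 ± 0.0942 CPM (log2 -6.18, adjusted p = 0.00365, edgeR), *Ngp* and *Ly6g* were at or under 3 counts in every WT library of eWAT, and the sum did not pass 51.9 CPM in any library. Fibroblast and progenitor markers rose with HFD in eWAT (5 of 6, led by *Col1a1* at log2 1.65) and 3 of 6 fell in KO mice. In iWAT 5 of 6 rose with HFD too (summed 516 to 841 CPM on ND and 1233 to 2142 CPM in WT HFD), and none was called for genotype. Of 8 adipocyte markers, 1 rose and 3 fell with HFD and 4 rose in KO mice in eWAT, and in iWAT 4 rose with HFD (summed 23301 to 28239 CPM on ND and 39706 to 50289 CPM in WT HFD) and none was called for genotype. All 4 endothelial markers fell with HFD in eWAT and rose in iWAT. Of all genes, 24.8% rose and 26.9% fell with HFD in eWAT, and 25.9% rose and 24.2% fell in iWAT. For genotype in eWAT 9.13% of all genes rose and 10.8% fell, and in iWAT 0% of all genes were called. The part of these cells in the levels of *Saa3*, *Hp* and the other genes was not tested.

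*Orm1*, the more abundant orosomucoid gene, stood at 124, 79.9, 124 and 241 CPM on ND and at 109, 250, 387, 302 and 424 CPM on HFD in eWAT of WT mice, with overlap (log2 1.05, SE 0.40, adjusted p = 0.0482, edgeR), a call that was lost when WT ND library 1, 2 or 3 or WT HFD library 5 was left out, and it was log2 1.57 (adjusted p = 0.126) within series 2. In iWAT it rose without overlap, from 80.2, 116 and 133 CPM to 209, 362, 246, 222 and 240 CPM (log2 1.25, SE 0.21, adjusted p = 0.0011, and log2 1.15, adjusted p = 0.0767 within series 2). It was not called for genotype, with KO HFD means of 355 ± 147 beside 295 ± 124 CPM in WT HFD of eWAT (log2 0.27, SE 0.37, adjusted p = 0.67) and 256 ± 22.4 beside 256 ± 61.1 CPM in WT HFD of iWAT (log2 -0.02, SE 0.20, adjusted p = 0.978). Within series 1 it was log2 0.42 (adjusted p = 0.491) and 0.056 (adjusted p = 0.89).

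*Orm2* was lower in level and was called for diet and genotype in eWAT. There it stood at 1.02, 0.872, 1.49 and 1.63 CPM on ND, at 4.04, 6.39, 12.1, 6.62 and 7.20 CPM in WT HFD and at 3.31, 4.67, 2.04, 2.22 and 6.52 CPM in KO HFD libraries. The diet groups did not overlap (log2 2.54, SE 0.42, adjusted p = 0.00076, and log2 2.52, adjusted p = 0.0559 within series 2), and the genotype groups did (log2 -0.95, SE 0.36, adjusted p = 0.0995). That last call was lost in 11 of the 14 fits that left out 1 library (adjusted p up to 0.223), and within series 1 it was log2 -1.28 (adjusted p = 0.0524). In iWAT *Orm2* stood at 0.152 to 1.64 CPM in all 11 libraries, with means of 0.382 on ND and 0.599 on HFD (two-sided exact permutation test, p = 0.5) and 1.13 in KO HFD (p = 0.232). The diet response of *Orm2* differed between the depots (log2 1.89, SE 0.70, adjusted p = 0.0578), a call that was lost when no low genes were filtered out (adjusted p = 0.114) and in 3 of 25 fits that left out 1 library, and the eWAT level was higher on ND (log2 1.70, adjusted p = 0.0316) and on HFD (log2 3.59, SE 0.48, adjusted p = 8.27e-05, edgeR).

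*Serpina3n*, a broadly made protease inhibitor, stood at 172, 210 and 168 CPM in WT ND and 540, 495, 444, 475 and 313 CPM in WT HFD libraries of iWAT, without overlap (log2 1.34, SE 0.33, adjusted p = 0.00833, and log2 0.80, adjusted p = 0.0791 within series 2). KO HFD libraries of iWAT read 206, 170 and 498 CPM (log2 -0.65, SE 0.32, adjusted p = 0.344), of which the last is of series 2. Within series 1 the KO difference was log2 -1.37 (adjusted p = 0.0153). In eWAT, *Serpina3n* ranged over 294 to 468 CPM on ND, 307 to 560 on HFD and 230 to 726 in KO HFD, and neither diet (log2 0.40, SE 0.29, adjusted p = 0.277) nor genotype (log2 -0.26, SE 0.27, adjusted p = 0.57) passed, and genotype within series 1 was log2 -0.56 (adjusted p = 0.126). With library series as a term the diet change of *Serpina3n* in eWAT passed (log2 1.02, adjusted p = 0.0396).

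*Serpina3g*, an intracellular inhibitor known from lymphocytes and myeloid cells, rose in eWAT and fell in iWAT. In eWAT it stood at 1.22, 1.71, 0.982 and 1.77 CPM on ND, at 4.49, 3.37, 2.44, 5.35 and 2.23 CPM in WT HFD and at 2.19, 1.99, 1.69, 2.16 and 1.89 CPM in KO HFD libraries. No groups overlapped for diet (log2 1.33, SE 0.31, adjusted p = 0.00499) or for genotype (log2 -0.85, SE 0.29, adjusted p = 0.0698), where 4.34% of all genes lay apart in that direction. The genotype call was lost in 7 of 14 fits that left out 1 library (adjusted p up to 0.183), and the diet call was lost with series as a term (log2 0.97, adjusted p = 0.104) and within series 2 (log2 0.64, adjusted p = 0.45). Within series 1 the genotype difference was log2 -0.97 (adjusted p = 0.0709). In iWAT the 3 WT ND libraries read 26.6, 38.5 and 21.3 CPM, and the 5 WT HFD libraries read 3.02, 2.42, 1.09, 3.34 and 4.10 CPM (log2 -3.32, SE 0.37, adjusted p = 0.000142, and log2 -2.78, adjusted p = 0.0323 within series 2). KO HFD libraries of iWAT read 1.90, 1.33 and 0.994 CPM (log2 -1.02, SE 0.39, adjusted p = 0.232, and log2 -0.60, adjusted p = 0.486 within series 1). B and T cell markers summed to 403, 616 and 456 CPM in those ND libraries and to 1.6 to 54.1 CPM in the other 8 of iWAT, and *Ms4a1*, *Cd79a*, *Cd3e* and *Cd3g* of that list fell with HFD. Their part in the level of *Serpina3g* was not tested. The diet response differed between depots by a log2 of 4.69 (SE 0.48, adjusted p = 1.98e-06), and on ND *Serpina3g* was lower in eWAT (log2 -4.34, SE 0.39, adjusted p = 2.05e-07, edgeR).

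**Figure D3:**
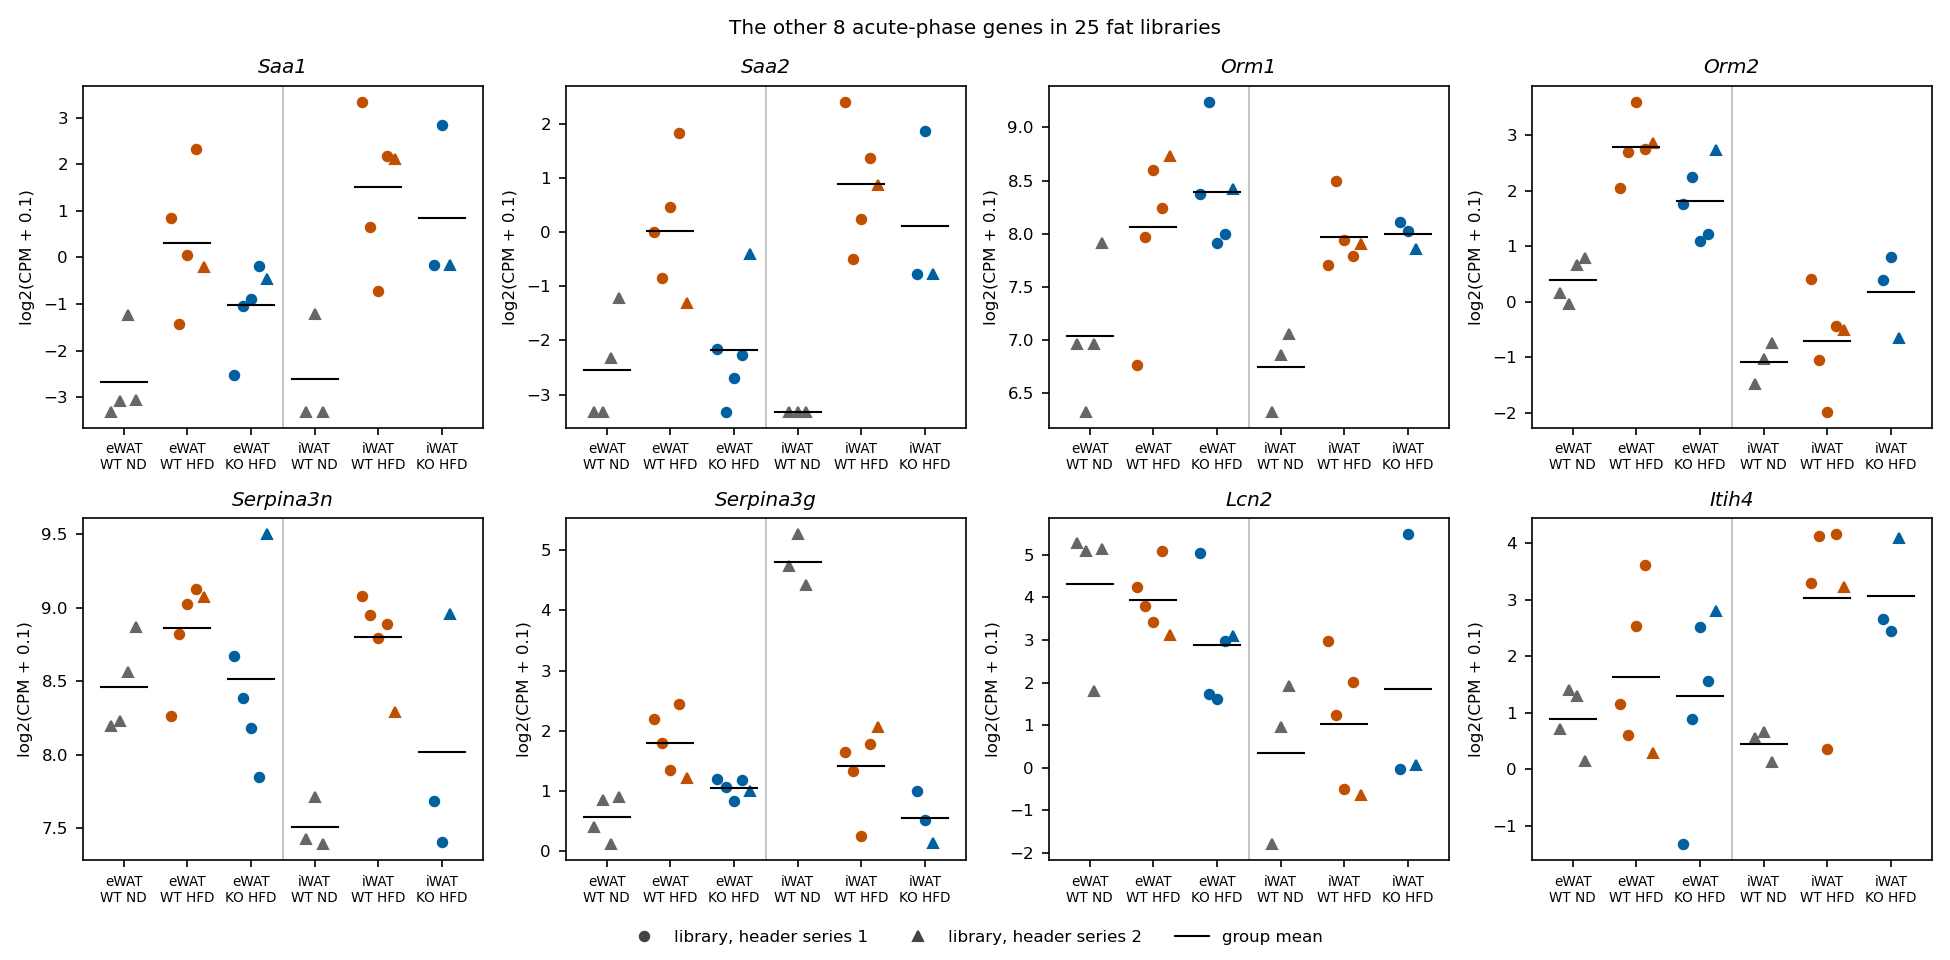
The other 8 genes as log2(CPM + 0.1) by group, with circles for series 1, triangles for series 2 and a line at the mean of each group. *Serpina3g* was highest in iWAT of WT ND mice (21.3 to 38.5 CPM), and a single KO HFD library of iWAT stood at 44.8 CPM of *Lcn2*. For *Orm2*, every eWAT library lay above the iWAT libraries of its diet and genotype. Of all genes, 19% did so in WT ND, 7.04% in WT HFD and 3.39% in KO HFD mice.

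The genes mainly made in liver, *Saa1*, *Saa2* and *Itih4*, rose with HFD in iWAT from low levels on ND. *Saa1* had 0, 17 and 0 counts in the WT ND libraries and stood at 10.1, 1.48, 0.505, 4.42 and 4.24 CPM in WT HFD libraries (log2 5.17, SE 1.5, adjusted p = 0.0177). Without ND library 2, the one with counts, the fitted value was log2 10.4, so the size of this change rests on that library. *Saa2* had 0 counts in all 3 ND libraries and stood at 5.22, 0.611, 1.09, 2.48 and 1.74 CPM on HFD (adjusted p = 0.00215), at least 34.0-fold higher against a floor of 3 counts per library. *Itih4* stood at 1.36, 1.48 and 0.999 CPM on ND and 9.72, 17.3, 1.19, 17.8 and 9.28 CPM on HFD (log2 3.14, SE 0.76, adjusted p = 0.00747), where HFD library 3 lay within the ND range. Within series 2 the change was log2 5.21 for *Saa1* (adjusted p = 0.111) and 2.88 for *Itih4* (adjusted p = 0.0295). KO HFD libraries read 0.797, 7.04 and 0.8 CPM of *Saa1*, 0.488, 3.54 and 0.485 CPM of *Saa2* and 6.22, 5.37 and 16.9 CPM of *Itih4*, and none of these genes passed for genotype (log2 -0.57, -0.61 and -0.23, adjusted p at least 0.776). Without KO library 2, the highest for *Saa1* and *Saa2*, their values were log2 -2.37 and -2.19, also not called. Within series 1 the 3 were log2 -0.085, -0.24 and -0.98 (adjusted p at least 0.501).

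Hepatocyte markers also rose with HFD. All 8 (*Alb*, *Apoa1*, *Apob*, *Ttr*, *Ahsg*, *Fgb*, *Cyp3a11*, *Serpina1c*) were called higher on HFD in both depots, where 24.8% of all genes were in eWAT and 25.9% in iWAT. None was called for genotype, and 4 of the 8 were at or under 3 counts in every WT ND library of iWAT. Their summed level in iWAT was 14.6, 22.3 and 35.9 CPM on ND, 439, 1119, 135, 969 and 504 CPM in WT HFD libraries 1 to 5 and 685, 229.7 and 1095 CPM in KO HFD libraries. Within KO HFD, library 2 had the lowest sum and the lowest *Itih4* (5.37 CPM) but the highest *Saa1* and *Saa2* (7.04 and 3.54 CPM). Within WT HFD, library 3 had the lowest sum, *Saa1* (0.505 CPM) and *Itih4* (1.19 CPM), and library 2 the highest sum but the lowest *Saa2* (0.611 CPM). In eWAT the sum was 10.1 to 15.7 CPM on ND, 65.2 to 504 CPM in WT HFD and 25.2 to 363 CPM in KO HFD. There *Itih4* read 1.01 to 2.53, 1.13 to 12.1 and 0.299 to 6.89 CPM, and neither diet (log2 1.28, SE 0.81, adjusted p = 0.215) nor genotype (log2 -0.36, SE 0.74, adjusted p = 0.78) passed, with genotype at log2 -1.02 (adjusted p = 0.438) within series 1. The part of these markers in *Saa1*, *Saa2* and *Itih4* was not tested.

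In eWAT *Saa1* and *Saa2* were low. They were over 3 counts in 1 and 2 of 4 WT ND libraries, in all 5 WT HFD libraries, and in 4 and 3 of 5 KO HFD libraries. Mean levels of *Saa1* were 0.0913 CPM on ND, 1.72 in WT HFD and 0.460 in KO HFD (exact two-sided permutation tests gave p = 0.0556 between the diets and p = 0.0952 between the genotypes), and of *Saa2* 0.108, 1.28 and 0.188 CPM (p = 0.0476 and p = 0.0317). Adjusted over the 6 such tests, with *Orm2* of iWAT, none was below 0.111, and the smallest p the designs allow is 0.00397 to 0.0179. Summed as 1 feature, *Saa1* and *Saa2* passed for diet in eWAT (log2 3.92, SE 1.10, adjusted p = 0.0123, edgeR) and not for genotype (log2 -2.20, SE 0.92, adjusted p = 0.131). Without the filter on low counts, which lets both into the fit, 7 of the 10 genes were called for diet in eWAT in place of 5 (22.1% of all genes).

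*Lcn2* was not called for diet (log2 -0.69, SE 0.73, adjusted p = 0.463 in eWAT and 0.69, SE 1.34, adjusted p = 0.702 in iWAT) or for genotype (log2 -0.63, SE 0.69, adjusted p = 0.583 and 2.32, SE 1.27, adjusted p = 0.386). Within series 1 the genotype values were log2 -0.72 (adjusted p = 0.535) and 2.64 (adjusted p = 0.216). In eWAT it stood at 38.4, 33.7, 3.40 and 34.7 CPM on ND, 18.9, 13.7, 10.6, 33.8 and 8.55 CPM in WT HFD and 32.7, 3.22, 2.94, 7.78 and 8.44 CPM in KO HFD libraries, and all 3 groups overlapped. In iWAT it stood at 0.187, 1.83 and 3.65 CPM, at 7.77, 2.27, 0.606, 3.95 and 0.540 CPM, and at 0.874, 44.8 and 0.946 CPM in the same order of groups. The KO library at 44.8 CPM was also the one in which epithelial markers summed to 579.6 CPM, beside 0.909 to 58.5 CPM in the other 10 libraries of iWAT, and without it the genotype value turned from log2 2.32 to -1.73. In eWAT those markers summed to 30.8 to 378 CPM on ND and to 3.40 to 43.4 CPM on HFD, 5 of 6 falling with diet in WT mice (26.9% of all genes), and epididymal markers reached 7660.5 CPM in ND library 2. On ND *Lcn2* was higher in eWAT than in iWAT (log2 3.86, SE 1.36, adjusted p = 0.0417), a call lost when iWAT ND library 1 or 2 was left out (adjusted p up to 0.135). The part of epithelial cells in these values was not tested.

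**Figure D4:**
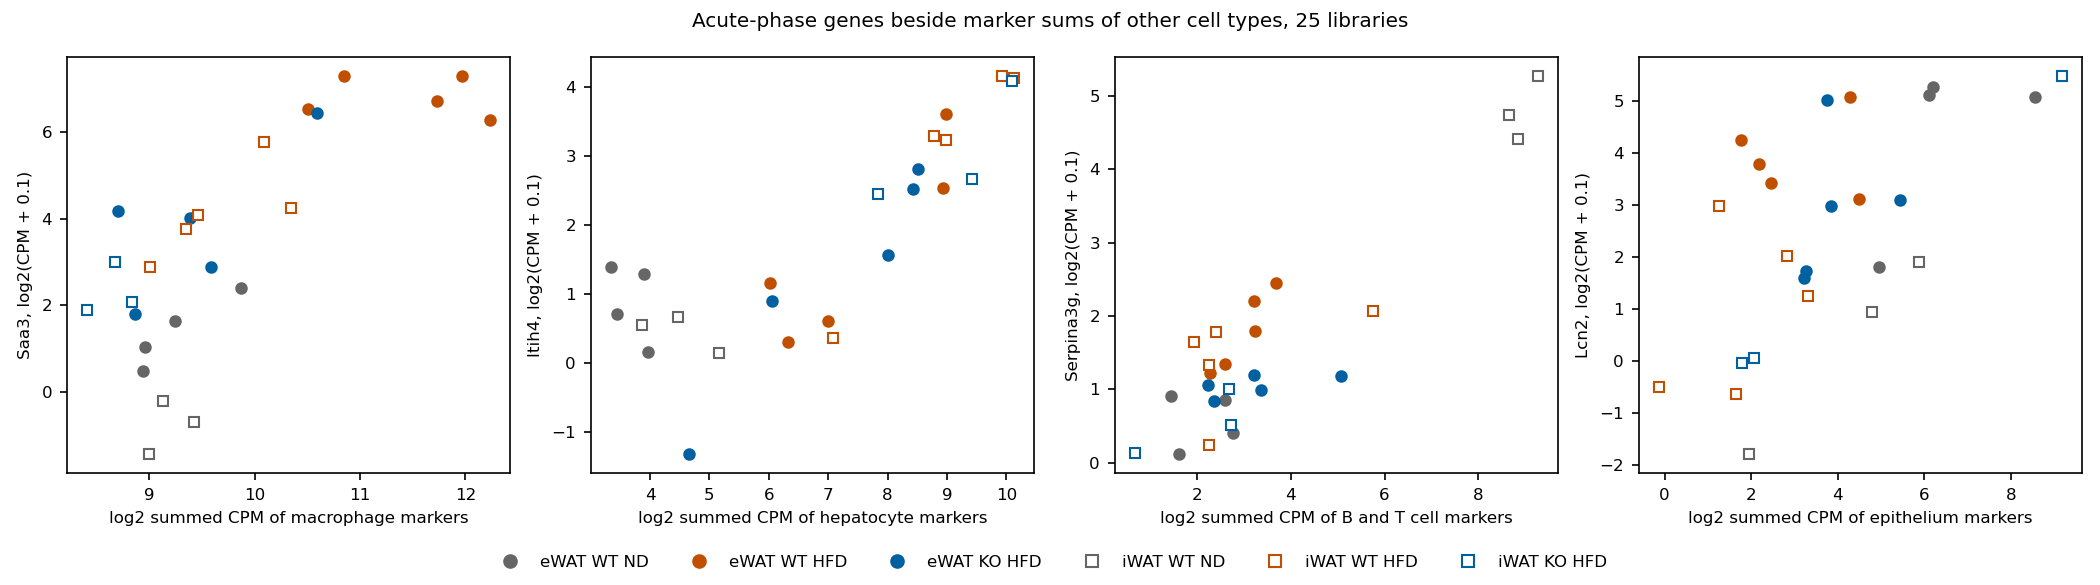
Levels of *Saa3*, *Itih4*, *Serpina3g* and *Lcn2* as log2(CPM + 0.1) against the log2 summed CPM of macrophage, hepatocyte, B and T cell and epithelial markers, 1 point per library (filled circles eWAT, open squares iWAT). The 3 WT ND libraries of iWAT stand apart for *Serpina3g* with marker sums of 403 to 616 CPM, and 1 KO HFD library of iWAT stands apart for *Lcn2* with 579.6 CPM.

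Between depots, 6 of 9 genes were called on ND (31.7% of 15034 genes), of which *Saa3*, *Hp*, *Orm2*, *Serpina3n* (log2 0.97, adjusted p = 0.0479) and *Lcn2* were higher in eWAT and *Serpina3g* was lower. Leaving out 1 library lost the ND call of *Serpina3n* in 3 of 25 fits (adjusted p up to 0.139, edgeR) and of *Orm2* in 2 (up to 0.11). On HFD in WT mice 3 were called, *Saa3*, *Hp* and *Orm2*, all higher in eWAT (18.6% of all genes), and in KO HFD mice 1, *Hp* (log2 1.11, SE 0.33, adjusted p = 0.0804, 3.81% of all genes). The KO call of *Hp* was lost in 3 of 25 such fits (adjusted p up to 0.339, edgeR). The diet response differed between depots for 2 genes, *Orm2* and *Serpina3g* (29% of all genes). The genotype difference did so for none (0.00665% of all genes).

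Of 36 further acute-phase genes tested in eWAT, 22 rose and 3 fell with HFD (median log2 1.45), beside 24.8% higher and 26.9% lower among all genes, and in KO mice 2 rose and 4 fell (median -0.53), near the 19.9% of all genes called. Several of this list are made mainly in the liver. Ceruloplasmin (*Cp*), a copper-carrying ferroxidase, fell with HFD from 203 ± 44.4 to 83.7 ± 14.1 CPM in eWAT (log2 -1.27, adjusted p = 0.000319), and the alpha-1-antitrypsin genes *Serpina1d* and *Serpina1a* rose (log2 4.49 and 4.81, adjusted p = 0.00122 and 0.00204, edgeR). For genotype the 3 with the smallest adjusted p were *Orm3*, which rose from 4.29 ± 3.48 to 23.5 ± 11.6 CPM (log2 2.45, adjusted p = 0.0258), *Serping1*, the C1 inhibitor (log2 -1.16, adjusted p = 0.026), and the pentraxin *Ptx3* (log2 -1.71, adjusted p = 0.0369). *Orm3*, a near copy of *Orm1* and *Orm2*, was lower on HFD than on ND (log2 -1.64, adjusted p = 0.0508), where *Orm2* was higher.

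In iWAT 26 of 35 rose and 4 fell with HFD (median log2 3.47), beside 25.9% and 24.2% of all genes, and none was called for genotype, with *Cp*, *Lrg1* and *Orm3* at log2 0.48, -0.62 and 1.75 (adjusted p at least 0.137). The 3 for diet with the smallest adjusted p were *Lrg1*, a glycoprotein also made in fat, which rose from 156 ± 11.6 to 469 ± 78.6 CPM (log2 1.62), *Serpina1c*, a hepatocyte marker too, from 0.0312 to 49.3 CPM, and *Saa4*, at 0 counts in all ND libraries and at least 67.2-fold higher on HFD. Negative acute-phase genes, those known to fall in the liver during inflammation, rose with HFD as well, 3 of 5 in eWAT (24.8% of all genes) and 5 of 5 in iWAT (25.9% of all genes). *Alb*, *Ttr* and *Apoa1* were called in both depots, and these 3 are also in the hepatocyte list. In KO mice *Rbp4*, the retinol carrier, rose in eWAT (log2 0.93, adjusted p = 0.0899).

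Genes of the inducing pathways were called about as often as genes in general. In eWAT 5 of 22 rose and 6 fell with HFD (median log2 -0.07), where 24.8% of all genes were higher and 26.9% lower, led by *Il1r1* (log2 -1.11), the IL-1 receptor antagonist *Il1rn* (log2 4.12, from 2.09 ± 1.36 to 36.3 ± 22 CPM) and *Cebpb* (log2 1.0). In KO mice 1 rose and 4 fell, where 19.9% of all genes were called, led by the NF-κB cofactor *Bcl3* (log2 -1.36, adjusted p = 0.0163), the STAT3 target *Socs3* (log2 -1.02, adjusted p = 0.0266) and the oncostatin M receptor *Osmr* (log2 -0.41, adjusted p = 0.0323, edgeR). In iWAT 4 of 23 rose and 9 fell with HFD, where 25.9% of all genes were higher and 24.2% lower, led by *Nfkb1* (log2 -0.93), *Tnfrsf1a* (log2 0.79) and *Tyk2* (log2 -0.68). None was called for genotype, with *Socs3* at log2 -1.06 (adjusted p = 0.172). The cytokine *Il6* itself stayed at or below 0.905 CPM in every library. Of the receptors and scavengers of these proteins, *Tlr2* rose with HFD in eWAT from 3.96 ± 0.965 to 13.8 ± 5.37 CPM and was lower in KO mice at 4.92 ± 2.54 CPM (log2 1.80 and -1.48, adjusted p = 0.00347 and 0.0219). The lipocalin-2 receptor gene *Slc22a17* fell with HFD (log2 -0.85, adjusted p = 0.0012), as did *Mmp9*, whose product binds lipocalin-2, and the endocytic receptor *Lrp2* (log2 -2.57 and -4.18). Of this list 2 of 9 in all rose and 4 fell, beside 24.8% higher and 26.9% lower among all genes. *Lrp1* was lower in KO mice (log2 -0.84, adjusted p = 0.05). In iWAT 3 of 8 rose with HFD, *Scarb1*, *Cd36* and *Cd163*, the haptoglobin-haemoglobin receptor (log2 0.95, adjusted p = 0.0802).

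The genes most like each of these in pattern were sought over the libraries of a depot by Pearson correlation of log2 CPM, as a description. *Saa3* was most like *Tph2*, *Lctl* and *Dcbld2* in eWAT (r = 0.98 for all 3, 14 libraries) and like *Coro1c*, *Ctsk* and *Rab3il1* in iWAT (r = 0.975 to 0.977, 11 libraries). *Hp* was most like *Tapbp* in eWAT (r = 0.984) and *Grn* in iWAT (r = 0.973). In iWAT *Saa1* was most like *Dhrs3*, *Ly96* and *Dynll1* (r = 0.9005 to 0.9087). *Saa2* was most like *Zbtb7c*, *Dynll1* and *Trem2* there (r = 0.9378 to 0.9399). *Itih4* was most like *Slc25a47*, *Hpd* and *Gnmt* in iWAT (r = 0.948 to 0.98), genes known for their high levels in liver, and *Serpina3g* was most like *Mical1*, *Coro1a* and *Icam1* there (r = 0.985 to 0.989). Among the 10 genes, *Saa3* and *Hp* had r = 0.923 in eWAT and 0.912 in iWAT, while *Lcn2* had r = -0.05 with each of them in eWAT. These libraries share groups, so the values describe group differences as much as variation within groups.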

How the data were processed

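RNA from 25 fat samples was sequenced as directional mRNA libraries. According to the methods and the processing notes of the submitters, the authors trimmed reads with cutadapt, aligned them with STAR to GRCm38 (mm10) and named bedtools, and they kept genes by a minimum CPM and tested with DESeq2. The program that counted reads and its use of strand are not given in the sources used here. The deposited files hold counts of uniquely aligned reads per gene, 5 classes of reads not counted on a gene (left out of library sizes and tests), cDNA lengths and FPKM values that the authors derived from these counts. The FPKM columns were checked against the counts (largest difference 0.0005) and not tested. Reads on no feature were 6.41% to 11.9% and ambiguous reads 1.52% to 2.07% of classified reads.

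Gene IDs were joined to symbols by GENCODE. Genes whose mean over the libraries of a fit reached 1 CPM were normalized by TMM and fitted by edgeR 4.0.16 (quasi-likelihood, limma 3.58.1, R 4.3.3), with 3 groups per depot, or 6 groups over 25 libraries for depots and interactions, as the labels give them. Benjamini-Hochberg adjustment covered all genes, and an adjusted p under 0.1 was called, the threshold the study used. SE are those of log2 fold changes. CPM are on 1 scale, TMM over all 25 libraries, and log2 CPM for correlations used a prior count of 2. Members under the filter had two-sided exact permutation tests of CPM. Alternatives were no filter, 1 CPM in every library, DESeq2 1.42.0 size factors or Wald test, an adjusted p under 0.05, a replicate block, a series term, series 1 or 2 alone (the latter chosen after seeing the data), summed near copies, only the groups compared, and each library left out.

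The 10 genes and all lists were chosen with earlier results of these data known. Named from each list are the 3 genes with the smallest adjusted p per comparison. *Il6*, *Orm3* for diet and single markers beyond that were named after their values were seen. Samples of a group are separate libraries of mice, with no statement that they are otherwise independent, and p-values measure the spread between them. Library pairs within a group differed by a chi-square of at least 30.95 per degree of freedom, so none was a copy. Library numbers did not clearly pair samples across groups, and the main tests treat libraries as separate. Counting limits cover counting error only. Figures were drawn in Python 3.11.15 with matplotlib 3.10.9. 1 item is not reported here.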

Additional observations from a re-analysis of the deposited data

Results flagged for a closer look

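In 9 of the 40 combinations of gene and group with 4 or 5 libraries, 1 library lay farther from the rest than Dixon's critical value at 95% allows. Chance gives about 1 in 20 where values are normally distributed. CPM need not be, least of all near the floor (*Saa1* in eWAT of WT ND mice had 0, 1, 13 and 1 counts). The number flagged is therefore no measure of an excess over chance. In eWAT of KO HFD mice, library 5 was the highest of 5 for *Saa3* (85.9 CPM, next 17.9), *Hp* (8058 CPM, next 3789) and *Saa2* (0.652 CPM, next 0.124). The same library held the highest macrophage marker sum of its group (1542 CPM) and 1049.9 CPM of epididymal markers, and it belongs to series 2. The part of any of these in its values was not tested. Without it, *Saa3*, *Hp*, *Serpina3g*, *Orm2* and *Serpina3n* were called lower in KO mice (5 in place of 4, while the calls among all genes rose from 2976 to 4238), with an adjusted p of 0.00119 for *Saa3* and 0.00114 for *Hp* (edgeR).

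Library 2 of the same group was the highest for *Orm1* (606 CPM, next 342) and library 1 for *Lcn2* (32.7 CPM, next 8.44). In eWAT of WT ND mice, library 3 was the lowest for *Lcn2* (3.4 CPM, next 33.7) and the highest for *Saa1* (0.327 CPM, next 0.0195). In iWAT of WT HFD mice, library 1 was the highest for *Saa3* (54.1 CPM, next 18.7) and library 2 for *Orm1* (362 CPM, next 246).

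The diet response differed between the depots for *Serpina3g* (log2 4.69, eWAT less iWAT, adjusted p = 1.98e-06) and *Orm2* (log2 1.89, adjusted p = 0.0578) by the interaction term of the edgeR fit over 25 libraries.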

How the results depend on the processing

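Of 1200 alternative values of single genes, 1078 kept their direction and their side of the threshold, 66 lost and 13 gained a call, and 43 changed sign. The number of the 10 genes called changed by more than 1.5 times in these cases. Without the filter on low counts it was 2 for genotype in eWAT (from 4), 1 for genotype in iWAT (from 0), 1 for the depot difference in diet response (from 2) and 0 for the depot difference in KO mice (from 1). With 1 CPM required in every library, which leaves fewer genes tested, it was 3 for diet and 2 for genotype in eWAT, 4 for diet and 1 for genotype in iWAT, 2, 1 and 0 for the depot difference in WT ND, WT HFD and KO HFD, and 0 for the depot difference in diet response. An adjusted p under 0.05 left 1 for genotype in eWAT, 1 for the depot difference in diet response and 0 for depot in KO mice. DESeq2 called 2 for genotype in iWAT (1072 genes in all) and 3 for depot in KO mice (892 in all). Summing near copies left 1 gene for the depot difference in diet response. Series 1 alone gave 3 for genotype in iWAT (2157 of all genes, from 0), and series 2 alone gave 3 for diet in eWAT (2270 of all genes, from 7730). Where no construction is named, the cause was not tested.

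Library numbers did not clearly pair the samples (same-number correlations from -0.171 to 0.158 for diet and -0.0973 to 0.261 for genotype in eWAT). Between depots they were 0.0374 to 0.229 in WT ND (mean 0.133, other numbers -0.0455) and -0.0505 to 0.489 in WT HFD (mean 0.185, other numbers -0.046). In KO HFD they were -0.0929 to 0.0813. Whether some mice gave both depots is not settled by these values, and the main depot and interaction tests treat libraries as separate. With the replicate block, 2 genes were called for genotype in eWAT and 0 for depot in KO mice, *Itih4* turned to log2 0.22 for genotype in iWAT and *Saa3* to 0.097 for the depot difference in diet response. *Lcn2* lost its depot call on ND (log2 2.64, adjusted p = 0.168).

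Leaving out 1 library at a time gave 1 to 5 genes for genotype in eWAT (1709 to 4238 of all genes) and 0 to 3 in iWAT (0 to 2664 of all genes), 4 to 5 and 8 for diet, 2 to 6, 2 to 4 and 0 to 3 for depot in WT ND, WT HFD and KO HFD, and 1 to 3 for the depot difference in diet response. Uncalled values that changed sign were, for genotype in eWAT, *Itih4* (-0.77 to 0.43) and *Orm1* (-0.011 to 0.44), for genotype in iWAT *Itih4* (-0.93 to 0.065), *Lcn2* (-1.73 to 3.03), *Orm1* (-0.088 to 0.16) and *Saa1* (-2.37 to 0.060), for diet in iWAT *Lcn2* (-0.020 to 1.57), for the depot difference in diet response *Hp* (-0.27 to 0.064) and *Saa3* (-0.40 to 0.62), and for that in genotype *Hp* (-0.076 to 0.54) and *Saa3* (-1.35 to 0.33). *Lcn2* for diet in iWAT was -2.36 with a series term and -1.78 in series 2 alone, and *Itih4* for diet in eWAT was -0.72 in series 2 alone. *Orm1* for genotype in iWAT, near 0 throughout, was 0.0055 without the filter, 0.0080 with the strict one, 0.0093 with DESeq2 size factors or test, 0.012 with 2 groups and 0.056 in series 1. At 3 counts per library, levels under 0.0537 to 0.115 CPM could not be told from 0.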
